A study of Mus musculus with 16 samples.

Results

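The genes described here are 8 genes in and beside the imprinted Kcnq1 domain on distal mouse chromosome 7: Kcnq1ot1, Cdkn1c, Phlda2, Slc22a18, Ascl2, Cd81, Tssc4 and Nap1l4. They were chosen by symbol, and all 8 were found among the 26219 genes of both deposited tables. The values are 3′ RNA sequencing levels in RPM, a unit of reads scaled to the gene-assigned total of each library, from 16 libraries of mouse PGCs (primordial germ cells, from which eggs and sperm derive), sorted from embryonic gonads in a study of the repressor PRDM1, also called BLIMP1.

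The first table held 8 libraries of E11.5 (embryonic day) cells on the C57BL/6 strain. All 8 came from Prdm1(flox/flox); Rosa26(neo-EYFP/+) embryos whose mothers received 4-hydroxytamoxifen at E10.5, 3 mg for each 25 g of body weight, so the 4 control libraries shared the drug and the floxed alleles. The 4 libraries labelled Prdm1_CKO also carried the Dppa3-MCMP(Tg/0) transgene, in which a germ cell gene drives the recombinase. The second table held Dppa3(EGFP/+) cells on an ICR:C57BL/6=1:1 background, labelled wild type, with 2 libraries each at E10.5, at E11.5, from E13.5 males and from E13.5 females. The labels describe sorting by EYFP and with an antibody against SSEA-1 without tying either to a group, and the embryos or litters behind each replicate are not named. P-values therefore measure the spread between these libraries, which may be technical.

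Depth was 2797628 to 5032347 reads in the floxed and 1484856 to 4783298 in the wild-type libraries, and the floor of 3 reads lay between 0.596 and 2.02 RPM. Such floors and the counting intervals below leave out all error but counting error, because reads copied by PCR do not count separate molecules. Prdm1 itself measured 50.7 to 73.0 RPM in the control libraries and 76.6 to 89.4 RPM in the Prdm1_CKO libraries, so its 3′ level was not lower under the knockout label. Whether these reads lie outside the deleted part is not given in the sources used here, and the group is called CKO-labelled below. All 9 germ cell markers were detected in every group, with summed levels of 3185 to 3990 RPM in the floxed and 4490 to 9460 RPM in the wild-type libraries. In bulk libraries, fewer cells of a type and less RNA per cell cannot be told apart.

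Imprinted genes are transcribed mainly from the allele of one parent. In the Kcnq1 domain the control element is the promoter of Kcnq1ot1, a long noncoding RNA that starts inside Kcnq1 and runs antisense to it. This promoter is methylated on the maternal allele, and on the paternal allele Kcnq1ot1 is transcribed and silences neighbouring genes in cis, some in the embryo and placenta and others mainly in the placenta. PGCs erase such methylation marks around the stages sampled here. The deposited values are totals per gene, so the parental alleles cannot be told apart.

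In the RefSeq annotation of GRCm38 (mm10) the 8 genes span 583 kb of chromosome 7. From the centromeric side, Ascl2 lies at 142966822 to 142969264 on the minus strand, Cd81 at 143052750 to 143067930 on the plus strand and Tssc4 at 143068416 to 143071093 on the plus strand. Kcnq1ot1 follows at 143213111 to 143296547 on the minus strand, inside Kcnq1 and across 1 annotated Kcnq1 exon. Beyond it are Cdkn1c at 143458339 to 143461059 on the minus strand, Slc22a18 at 143473726 to 143499334 on the plus strand, Phlda2 at 143501545 to 143503145 on the minus strand and Nap1l4 at 143513579 to 143549882 on the minus strand. Whether counting used strand is not given in the sources used here. Reads of Kcnq1ot1 and Kcnq1, of Tssc4 and Trpm5, of Cd81 and R74862, and of Cdkn1c and Gm44732 can therefore not be told apart where the GENCODE annotation has these genes overlap on opposite strands.

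RefSeq promoter sequences of build GRCm38.p6, 250 bases before to 50 after a start site of each gene, were matched for 6 of the 8 genes, all but Cdkn1c and Nap1l4. For Phlda2, Slc22a18 and Tssc4 that start site lies inside the outer gene boundaries given above. The 4 shown belong to the genes with the largest differences between the wild-type groups, Phlda2, Slc22a18 and Ascl2, and to the noncoding RNA of the control element. Each is written 5′ to 3′ along the gene's strand, with CG dinucleotides, the sites of DNA methylation, in capitals. They lie at chr7:143502475-143502774 on the minus strand (Phlda2), chr7:143473539-143473838 on the plus strand (Slc22a18), chr7:142969215-142969514 on the minus strand (Ascl2) and chr7:143296498-143296797 on the minus strand (Kcnq1ot1).
Phlda2: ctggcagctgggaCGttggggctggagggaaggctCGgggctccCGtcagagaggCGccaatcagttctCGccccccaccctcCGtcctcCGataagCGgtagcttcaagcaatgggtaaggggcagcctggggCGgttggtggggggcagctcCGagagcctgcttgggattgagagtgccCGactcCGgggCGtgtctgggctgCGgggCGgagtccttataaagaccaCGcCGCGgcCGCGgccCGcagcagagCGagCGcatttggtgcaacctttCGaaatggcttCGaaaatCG
Slc22a18: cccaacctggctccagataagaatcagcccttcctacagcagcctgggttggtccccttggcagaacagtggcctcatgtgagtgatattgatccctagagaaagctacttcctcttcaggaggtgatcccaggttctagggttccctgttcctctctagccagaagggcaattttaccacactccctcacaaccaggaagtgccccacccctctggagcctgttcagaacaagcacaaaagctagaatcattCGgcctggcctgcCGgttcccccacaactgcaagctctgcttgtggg
Ascl2: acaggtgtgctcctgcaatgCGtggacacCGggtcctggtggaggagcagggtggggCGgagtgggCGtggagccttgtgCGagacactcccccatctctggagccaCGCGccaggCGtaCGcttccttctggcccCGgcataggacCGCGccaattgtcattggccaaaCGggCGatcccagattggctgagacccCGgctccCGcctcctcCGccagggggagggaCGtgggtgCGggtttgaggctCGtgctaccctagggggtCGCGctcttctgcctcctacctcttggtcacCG
Kcnq1ot1: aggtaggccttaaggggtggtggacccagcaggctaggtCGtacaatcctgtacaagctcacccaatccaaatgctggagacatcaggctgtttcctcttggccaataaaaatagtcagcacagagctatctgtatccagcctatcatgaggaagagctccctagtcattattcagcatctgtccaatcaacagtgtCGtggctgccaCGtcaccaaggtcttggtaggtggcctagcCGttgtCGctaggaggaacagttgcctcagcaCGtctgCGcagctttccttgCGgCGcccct

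The Phlda2 window holds 26 CG, more than 83.1% of the 32851 mouse promoters of the same length, while the window of its neighbour Slc22a18, on the other strand, holds 2, more than 14.1%. Ascl2, Cd81 and Tssc4 hold 23 CG each and Kcnq1ot1 holds 9, against a median of 7 over all promoters. The CCAAT box, a site of the factor NF-Y, was searched on both strands and is found 3 times each in the Kcnq1ot1 and Ascl2 windows and 1 time each in those of Phlda2 and Tssc4. It occurs in 37.4% of all promoters. The letters GAAAGTG, a core of the sequence that PRDM1 recognises, are in 0 of the 6 windows on either strand and in 4.81% of all promoters. A match is a description of the sequence and not a site of binding.

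Phlda2 had the largest fitted difference among the 8 genes, which was between the sexes at E13.5. It encodes a small pleckstrin homology domain protein that restrains placental growth and is expressed from the maternal allele. Its level was 348 and 358 RPM in the E10.5 libraries, 150 and 176 RPM in those of E11.5, 5.34 and 4.93 RPM in E13.5 males, and 558 and 508 RPM in E13.5 females. None of the 4 groups overlapped with another, and the male libraries lay far below all others.

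Relative to E11.5, Phlda2 fell by 4.73 ± 0.13 on the log2(RPM + 1) scale in E13.5 males (adjusted p = 6.83e-22) and rose by 1.71 ± 0.13 in females (adjusted p = 1.81e-11, both by limma, ± SE). A pseudocount of 1 is added throughout, and the adjusted p is over all 10749 wild-type genes tested. The mean at E13.5 was 104 times higher in females, 533 ± 35.3 RPM against 5.14 ± 0.29 RPM (SD, n = 2), a log2 difference of 6.44 ± 0.13 (adjusted p = 3.80e-25 by limma). By the size of that difference it was number 4 of all genes tested. Between E10.5 and E11.5 Phlda2 fell by 1.12 ± 0.13 on the log2 scale (adjusted p = 1.38e-06 by limma), from 353 ± 7.08 to 163 ± 18.5 RPM (SD, n = 2).

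Slc22a18, the maternally expressed neighbour of Phlda2, encodes a membrane protein of the organic cation transporter family. It measured 10.4 and 7.68 RPM in the E10.5 libraries, 8.76 and 8.83 RPM in those of E11.5, 0 and 0.352 RPM in E13.5 males, and 45.4 and 36.2 RPM in E13.5 females. The male libraries together held 1 read of the gene and were both under their floor of 3 reads, whereas the female libraries held 349. Per read of library, the female to male ratio was 241 (95% counting interval 43.1 to 9565), and E11.5 to E13.5 male was 51.4 (8.75 to 2074).

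Slc22a18 rose from E11.5 to E13.5 in females by 2.08 ± 0.37 on the log2 scale (adjusted p = 4.06e-05) and fell in males by 3.07 ± 0.37 (adjusted p = 1.99e-07, both by limma). The direct comparison of the sexes gave 5.16 ± 0.37 (adjusted p = 9.27e-12), rank 13 of 10749 by size. With male libraries at 0 and 1 read, this fitted difference depends on the pseudocount, and it ran from 2.31 to 7.58 over the alternatives tried. Between E10.5 and E11.5 its groups overlapped, with a log2 difference of -0.02 ± 0.37 (adjusted p = 0.986).

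Cdkn1c encodes p57KIP2, a cyclin-dependent kinase inhibitor that restrains cell division and is expressed from the maternal allele. Its level was 19.9 and 20.2 RPM in the E10.5 libraries, 8.76 and 13.1 RPM in those of E11.5, 37.7 and 39.1 RPM in E13.5 males, and 54.1 and 68.0 RPM in E13.5 females. The order of the groups was E11.5, E10.5, E13.5 male and E13.5 female, and neighbouring groups did not overlap. In contrast to Phlda2 and Slc22a18, its E13.5 libraries of both sexes lay above those of E11.5.

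The rise of Cdkn1c from E11.5 was 1.75 ± 0.23 on the log2 scale in males (adjusted p = 9.86e-07) and 2.39 ± 0.23 in females (adjusted p = 2.89e-09, both by limma). Females were 1.59 times higher than males, a log2 difference of 0.65 ± 0.23 (adjusted p = 0.0305 by limma). That call was lost when any single E13.5 library was left out, at 0.81 (adjusted p = 0.0574) without female 1, 0.48 (adjusted p = 0.286) without female 2, 0.62 (adjusted p = 0.120) without male 1 and 0.67 (adjusted p = 0.0969) without male 2. The fall from E10.5 to E11.5, by 0.84 ± 0.23 (adjusted p = 0.0361 by limma), was called in 8 of 17 alternatives, with adjusted p from 0.0115 to 0.185. Leaving out E10.5 replicate 1 gave -0.85 (adjusted p = 0.185), E10.5 replicate 2 -0.83 (adjusted p = 0.158), E11.5 replicate 1 -0.58 (adjusted p = 0.182), and female 1 or 2 left -0.84 with adjusted p = 0.0637 or 0.0686.

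The summed levels of somatic and erythroid markers were also lower at E11.5 than at E10.5. The 13 markers of gonadal somatic and mesenchymal cells, all in the table, summed to 61.4 and 67.9 RPM in the E10.5 libraries and 6.06 and 9.40 RPM in those of E11.5, where Col1a2, Lum, Dcn, Lhx9 and Nr5a1 were at 0 in both libraries. The 6 erythroid markers summed to 227 to 247 RPM at E10.5 and 6.26 to 16.8 RPM at E11.5, with Alas2 at 0 in both groups. Endothelial markers summed to 154 to 161 and then 119 to 129 RPM, mostly Pecam1 with means of 129 and 108 RPM. The means of Kdr fell from 4.92 to 0.569 RPM, Tie1 from 2.31 to 0 and Emcn from 3.99 to 0.285 RPM. Tek was 6.49 and 6.68 RPM and Cldn5 10.9 and 8.22 RPM. Markers of mesonephric epithelium summed to 20.8 to 26.3 and then 39.3 to 39.7 RPM. Lhx1 rose from 7.87 to 23.8 RPM and Cdh16 from 0.320 to 5.40 RPM, while Pax8 fell from 14.1 to 10.1 RPM and Pax2 from 1.25 to 0.142 RPM. The part of these marker differences in the falls of Phlda2, Cdkn1c, Igf2 and H19 between these stages was not tested. At E13.5 the somatic markers summed to 15.4 to 16.2 RPM in males, with Pdgfrb, Col1a2, Lum and Lhx9 at 0, and to 5.85 to 6.03 RPM in females, with Lum, Tcf21 and Nr5a1 at 0.

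Between the sexes at E13.5, Sox9 and Amh, markers of Sertoli cells, summed to 1.41 to 2.34 RPM in males with Amh at 0, and both were at 0 in females. The pre-granulosa pair Foxl2 and Fst summed to 1.34 to 1.76 RPM in males with Foxl2 at 0, and to 0.209 to 1.37 RPM in females. The 7 endothelial markers summed to 68.3 to 68.5 RPM in males and 118 to 125 RPM in females, of which Pecam1, also expressed by germ cells, made up 57.4 ± 0.45 and 118 ± 4.17 RPM (SD, n = 2). Tie1 and Emcn were at 0 in males and Cdh5, Kdr and Tie1 in females. Erythroid markers summed to 5.01 to 7.04 RPM in males, with Hbb-bh1 at 0, and 31.2 to 37.6 RPM in females. The 4 markers of mesonephric epithelium summed to 78.2 to 80.6 RPM in males and 9.87 to 13.4 RPM in females, nearly all of it Lhx1, and Pax2 and Cdh16 were at 0 in both. The 5 macrophage markers reached at most 2.74 RPM. The part of these differences in the sex difference of the described genes was not tested.

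**Figure D1:**
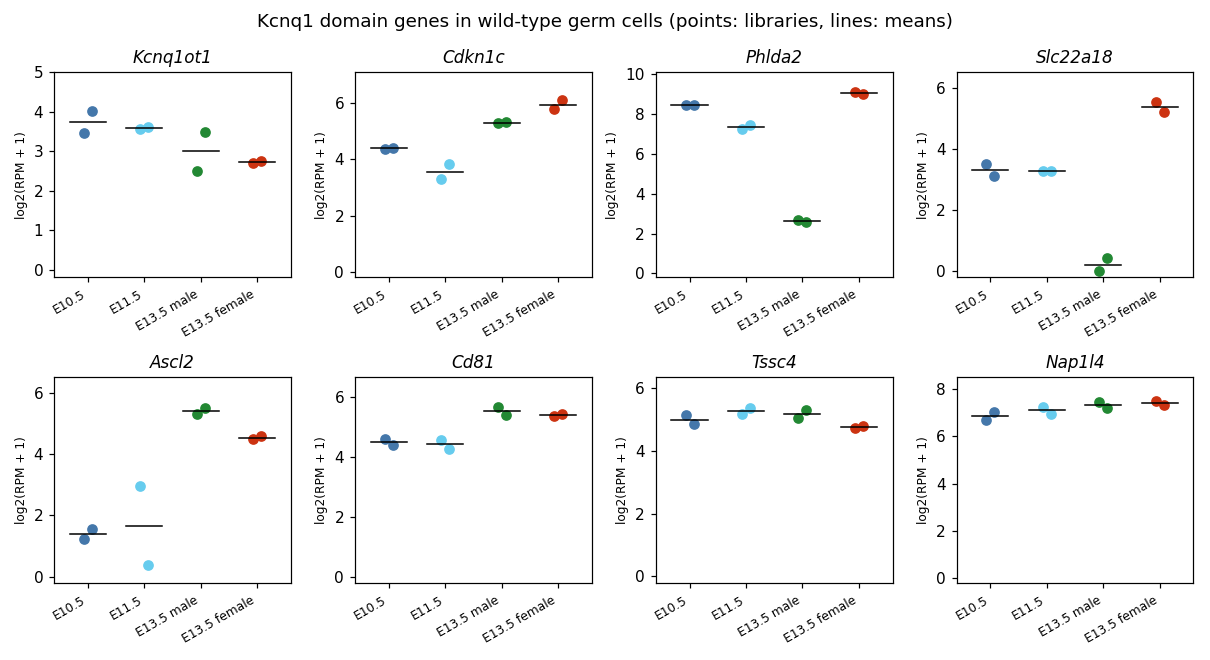
Levels of the 8 genes as log2(RPM + 1) in each wild-type library, 1 point a library, by stage and sex. The E13.5 male libraries lie lowest for Phlda2 (5.34 and 4.93 RPM) and Slc22a18 (0 and 0.352 RPM) and highest for Ascl2 (38.7 and 44.4 RPM).

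Ascl2 encodes a basic helix-loop-helix factor needed for the spongiotrophoblast of the placenta, where its imprint is best known. It was low at the early stages, at 1.35 and 1.92 RPM in the E10.5 libraries and 6.73 and 0.285 RPM in those of E11.5, and was 38.7 and 44.4 RPM in E13.5 males and 21.5 and 22.8 RPM in E13.5 females. Every E13.5 library lay above every earlier library. The E11.5 libraries lay on either side of those at E10.5, and the second was under its floor of 3 reads.

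The rise of Ascl2 to E13.5 was 3.75 ± 0.49 on the log2 scale in males (adjusted p = 6.43e-07) and 2.88 ± 0.49 in females (adjusted p = 2.12e-05, both by limma). Its mean was higher in males than in females, 41.6 ± 3.98 against 22.1 ± 0.86 RPM (SD, n = 2), the opposite order to Phlda2, Slc22a18 and Cdkn1c. The female to male difference of -0.88 ± 0.49 did not pass the test (adjusted p = 0.166 by limma). It passed in 4 of 17 alternatives, among them -0.88 without E11.5 replicate 1 (adjusted p = 0.0331) or without E11.5 replicate 2 (adjusted p = 0.0201). Ascl2 between E10.5 and E11.5 was 1.56 (adjusted p = 0.0173) without E11.5 replicate 2 and -1.03 without E11.5 replicate 1, against 0.27 ± 0.49 (adjusted p = 0.821) with all libraries.

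Cd81, a tetraspanin of the cell surface, measured 23.5 and 20.2 RPM in the E10.5 libraries, 22.9 and 18.2 RPM in those of E11.5, 49.8 and 40.8 RPM in E13.5 males, and 40.6 and 41.9 RPM in E13.5 females. It rose from E11.5 by 1.10 ± 0.22 in males (adjusted p = 0.000193) and 0.98 ± 0.22 in females (adjusted p = 0.000473, both by limma, log2 scale). The sexes overlapped, with a female to male difference of -0.13 (95% interval -0.57 to 0.32, adjusted p = 0.687).

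Nap1l4, a histone chaperone of the nucleosome assembly family, and Tssc4, which in human cells helps assemble a spliceosome particle, passed no test among the wild-type groups. Nap1l4 measured 102 and 130 RPM in the E10.5 libraries, 153 and 123 RPM in those of E11.5, 173 and 145 RPM in E13.5 males, and 181 and 161 RPM in E13.5 females. Tssc4 measured 34.3 and 27.9 RPM in the E10.5 libraries, 35.0 and 40.1 RPM in those of E11.5, 32.4 and 38.7 RPM in E13.5 males, and 25.9 and 26.9 RPM in E13.5 females. The E13.5 female libraries of both genes lay outside the range at E11.5, above it for Nap1l4 (log2 difference 0.32 ± 0.14, adjusted p = 0.0542) and below it for Tssc4 (-0.49 ± 0.21, adjusted p = 0.0518 by limma). That difference of Nap1l4 ran from 0.16 to 0.47 with a library left out, and it passed in 6 of 17 alternatives.

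Kcnq1ot1, the noncoding RNA of the control element, measured 9.93 and 15.0 RPM in the E10.5 libraries, 10.8 and 11.1 RPM in those of E11.5, 4.68 and 10.2 RPM in E13.5 males, and 5.44 and 5.76 RPM in E13.5 females. Its order from high to low was E10.5, E11.5, E13.5 male and E13.5 female. The first pair of groups overlapped and so did the sexes at E13.5. The female libraries lay below both E11.5 libraries, at 5.60 ± 0.23 against 10.9 ± 0.23 RPM (SD, n = 2), a log2 difference of -0.86 ± 0.38 that did not pass the test (adjusted p = 0.0584 by limma). It passed in 5 of 16 alternatives, over which the difference ran from -0.98 to -0.41. Among the 5 were those without E13.5 male replicate 1 or 2. These libraries are not part of this comparison, and the difference stayed at -0.86.

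**Figure D2:**
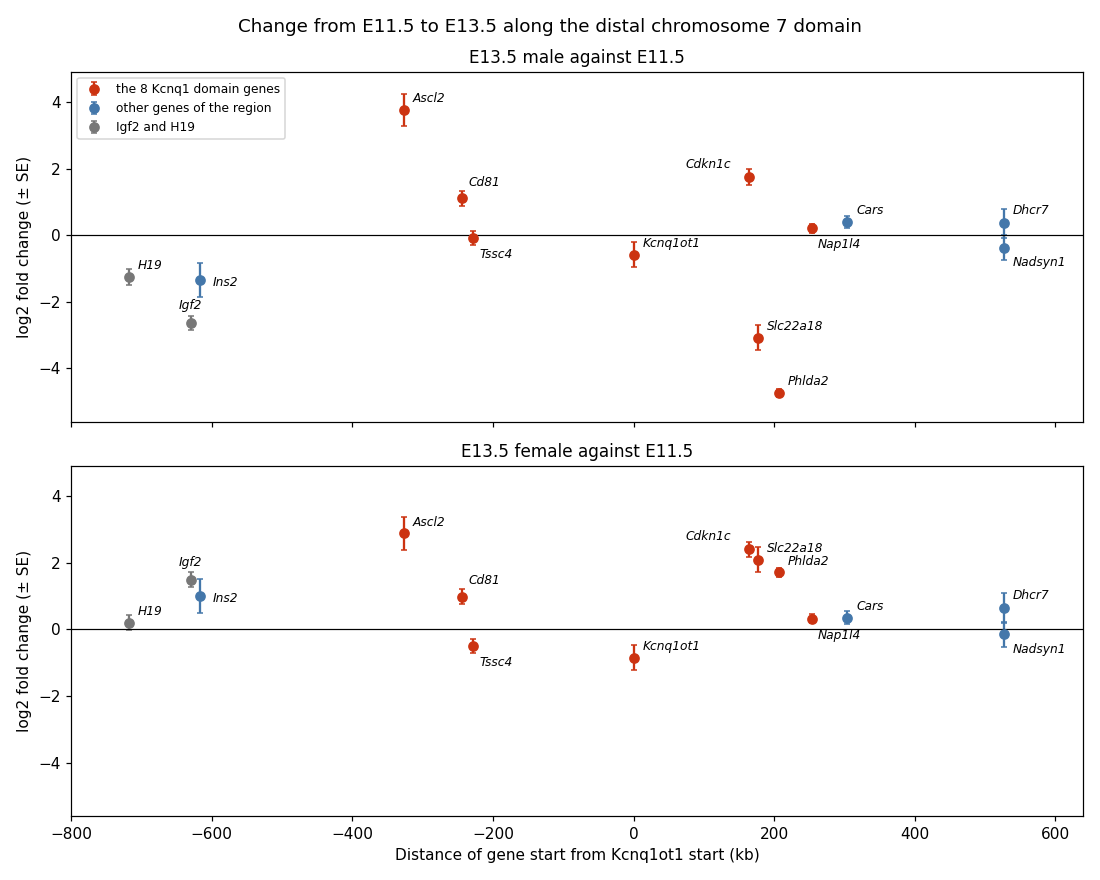
Log2 differences (with SE) of genes of the region between E13.5 and E11.5, in males and in females, plotted by the distance of each gene's start in kb from the start of Kcnq1ot1. Phlda2 and Slc22a18, at 207 and 177 kb, differ in sign between the sexes, while Cdkn1c at 164 kb and Ascl2 and Cd81 on the other side lie above 0 in both.

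Counted over the 8 genes, all of which passed the filter of 5 RPM in at least 2 wild-type libraries, 0 rose and 2 fell from E10.5 to E11.5, where 4.28% of all tested genes were called, 2.31% higher and 1.97% lower. From E11.5 to E13.5 in males 3 rose and 2 fell, against a background of 38.2%, with 22.3% higher and 15.9% lower. In females 5 rose and 0 fell, against 51.2%, with 31.2% higher and 20.0% lower. In females against males at E13.5, 3 were higher and 0 lower, against 37.6%, with 21.2% higher and 16.4% lower. Shares of this size mean that a call between the later groups was common over the whole table. Ascl2 reached 5 RPM in only 1 library before E13.5 and so passed the filter through its E13.5 libraries. The median log2 difference of the 8 genes in females from E11.5 was 1.34, against 0.13 over all genes tested. It was 0.07 against 0.11 in males, -0.05 against 0.02 from E10.5 to E11.5, and -0.01 against 0.05 between the sexes. The wild-type comparisons share libraries and are given side by side.

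Values of the 2 groups did not overlap for 3 of the 8 genes from E10.5 to E11.5, where 46.2% of all genes tested did not. The same held for 6 in males from E11.5 (66.2%), 8 in females from E11.5 (74.9%) and 5 between the sexes (71.1%).

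In the floxed libraries at E11.5 the question was whether the levels differed with the CKO label, and 0 of the 5 genes tested were called, where 2.43% of all 9384 tested genes were, 1.93% higher and 0.501% lower. At an unadjusted p under 0.05 the count among these 5 was also 0, and limma voom on recovered reads called 0. Slc22a18, Ascl2 and Kcnq1ot1 did not reach 5 RPM in 4 libraries and were not tested. For 0 of the 8 genes were the groups free of overlap, against 8.19% of all genes tested, a share that leaves out genes under the filter.

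Phlda2 was 136, 162, 157 and 143 RPM in the control and 148, 98.6, 173 and 147 RPM in the CKO-labelled libraries. The groups overlapped, and CKO-labelled replicate 2 was lowest. The log2 difference was -0.11 (95% interval -0.42 to 0.21, adjusted p = 0.856 by limma).

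Cdkn1c was 22.1, 43.4, 20.4 and 23.1 RPM in the control and 53.2, 18.9, 16.1 and 163 RPM in the CKO-labelled libraries. CKO-labelled replicate 4 stood far above the rest, and the fitted difference was near 0 without it. The difference of 0.63 (95% interval -0.55 to 1.81, adjusted p = 0.739 by limma) was -0.03 without CKO-labelled replicate 4, and -0.10 (adjusted p = 0.952) without this library and control replicate 1. Cd81 was 14.4, 23.1, 17.1 and 26.6 RPM in the control and 21.8, 20.1, 12.6 and 46.8 RPM in the CKO-labelled libraries, again highest in CKO-labelled replicate 4. Its difference was 0.19 (95% interval -0.49 to 0.87, adjusted p = 0.880), -0.15 without CKO-labelled replicate 4, and -0.29 (adjusted p = 0.672) without it and control replicate 1.

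The somatic marker sum moved with Cdkn1c. It was 13.54, 74.8, 21.5 and 33.9 RPM in the control and 107, 20.1, 10.3 and 268 RPM in the CKO-labelled libraries, with none of the 13 markers at 0 throughout a group. The 3 libraries with the highest sums, CKO-labelled 4 and 1 and control 2, were also the 3 highest for Cdkn1c. Cd81 followed it less closely, since CKO-labelled 4 was highest but control 4 came next at 26.6 RPM, and CKO-labelled 1 was at 21.8 RPM, below controls 2 and 4. The part of these cells' RNA in the level of Cdkn1c and Cd81 was not tested. Other marker sums overlapped between the groups, at 68.9 to 132 against 84.1 to 137 RPM for endothelial, 1.18 to 62.4 against 1.79 to 77.2 RPM for erythroid and 18.2 to 52.5 against 12.6 to 26.0 RPM for mesonephric epithelium, controls first. The endothelial sum was mostly Pecam1, at 94.4 ± 28.9 RPM in the control and 65.3 ± 11.6 RPM in the CKO-labelled libraries (SD, n = 4). Of the other endothelial markers, Tie1 was at most 0.219 against 17.2 RPM, Emcn 0.199 against 13.2 RPM and Kdr 3.58 against 16.8 RPM, controls first. All of these were at 0 in some libraries of both groups. In the CKO-labelled group, Tie1 and Kdr were at 0 in replicates 2 and 3 and Emcn in replicate 3. Their CKO-labelled means were 4.70 ± 8.34 RPM for Tie1, 4.33 ± 6.16 RPM for Emcn and 5.42 ± 7.93 RPM for Kdr (SD, n = 4). Cdh5 was at 0 in all 8 libraries. Sertoli markers summed to 0 to 3.18 against 0.199 to 3.25 RPM and macrophage markers to 0 to 6.59 against 0.795 to 9.52 RPM. Those of pre-granulosa cells did not overlap, at 0.219 to 1.59 RPM in controls and 3.38 to 7.66 RPM in the CKO-labelled libraries. Nearly all of this was Fst, at 0.879 ± 0.72 and 5.28 ± 1.74 RPM (SD, n = 4). Foxl2 was at 0 in controls and at most 0.232 RPM in the CKO-labelled libraries. Groups did not overlap for 8.19% of all genes tested, a share that leaves out genes under the filter, as Fst and Foxl2 were.

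**Figure D3:**
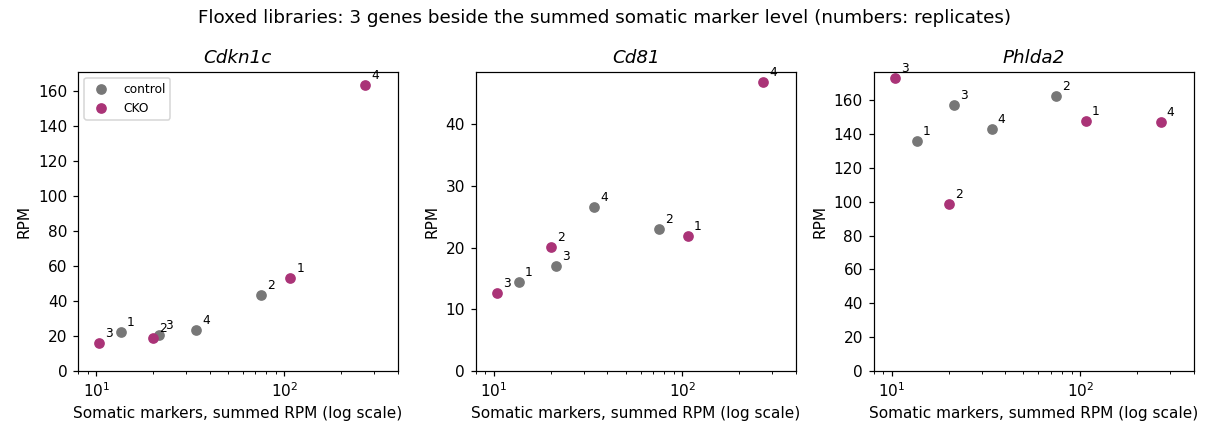
RPM of Cdkn1c, Cd81 and Phlda2 in each floxed library against the summed RPM of 13 somatic markers (log scale), with replicate numbers beside the points. CKO-labelled replicate 4, at a sum of 268 RPM, is highest for Cdkn1c (163 RPM) and Cd81 (46.8 RPM) and lies within the range of the others for Phlda2 (147 RPM).

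Nap1l4 was 154, 135, 148 and 147 RPM in the control and 130, 144, 151 and 153 RPM in the CKO-labelled libraries, a difference of -0.01 (95% interval -0.22 to 0.19, adjusted p = 0.979 by limma). Tssc4 was 30.9, 28.6, 30.0 and 37.2 RPM in the control and 29.5, 22.1, 26.1 and 31.8 RPM in the CKO-labelled libraries, a difference of -0.21 (95% interval -0.54 to 0.12, adjusted p = 0.672 by limma). Both genes overlapped between the groups. The interval of Nap1l4 was the narrowest of the 5 tested and that of Cdkn1c the widest.

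Of the genes under the filter, Slc22a18 was 3.53, 3.38, 3.94 and 6.12 RPM in the control and 2.32, 0.994, 3.73 and 0.715 RPM in the CKO-labelled libraries. It was lower in 3 of the 4 CKO-labelled libraries than in every control, while replicate 3 lay inside the control range. Ascl2 was 0.294, 3.78, 1.97 and 1.41 RPM in the control and 0.697, 0.199, 0.574 and 0.357 RPM in the CKO-labelled libraries. Fitted without the filter, Slc22a18 differed by -0.93 (unadjusted p = 0.0318, adjusted p = 0.461 by limma). Ascl2 differed by -0.84 (unadjusted p = 0.0419, adjusted p = 0.500 by limma). Kcnq1ot1 was 3.83, 4.18, 8.32 and 3.77 RPM in the control and 4.64, 4.17, 5.45 and 6.43 RPM in the CKO-labelled libraries. Control replicate 3 was the highest, and the difference without the filter was 0.08 (adjusted p = 0.942 by limma).

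**Figure D4:**
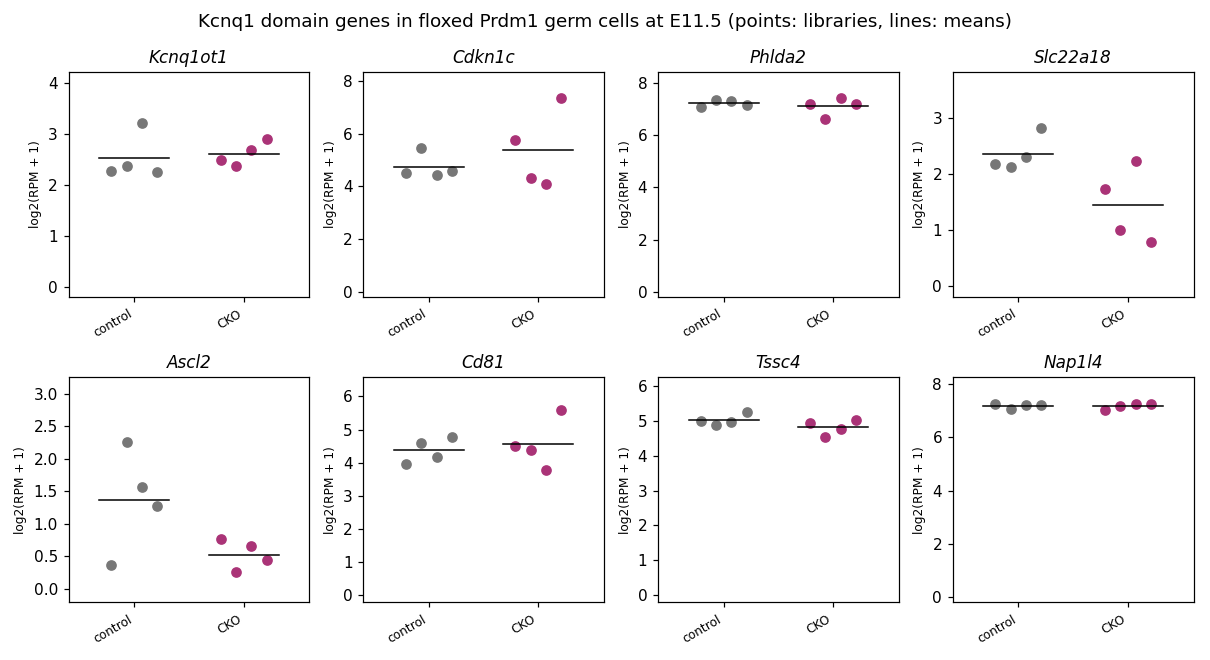
Levels of the 8 genes as log2(RPM + 1) in each floxed library at E11.5, 1 point a library, for the 4 control and the 4 CKO-labelled libraries. The groups overlap for every gene, and the single high CKO-labelled library for Cdkn1c is replicate 4 at 163 RPM.

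Kcnq1, the potassium channel gene that contains Kcnq1ot1, was at 0 in all libraries but 3, with 2 reads in CKO-labelled replicate 4 and 1 and 3 reads in the E13.5 female libraries. Of 14 further genes of the domain and its flanks, Kcnq1 included, 4 passed the wild-type filter, namely Cars, Dhcr7, Nadsyn1 and Ins2, and 3 the floxed filter, Cars, Dhcr7 and Nadsyn1. Ins2, an insulin gene, reached 5 RPM in the E10.5 libraries alone and so passed the filter through the group where it is high. Its mean was 7.55 ± 1.10 RPM at E10.5, 1.76 ± 1.54 RPM at E11.5, 0 in E13.5 males and 4.04 ± 0.10 RPM in E13.5 females (SD, n = 2). The genes Cars, Dhcr7 and Nadsyn1 passed no test in the wild-type comparisons. With the CKO label 0 of the 3 tested were called, where 2.43% of all genes tested were. Dhcr7, an enzyme of cholesterol synthesis, was 9.41 ± 1.47 RPM in the control and 4.81 ± 1.404 RPM in the CKO-labelled libraries (SD, n = 4). Its groups did not overlap, as for 8.19% of all genes tested, and its adjusted p was 0.102 by limma.

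The neighbouring imprinted pair of the next domain, Igf2, a paternally expressed growth factor, and H19, a maternally expressed noncoding RNA, both fell from E10.5 to E11.5. Igf2 was 83.5 and 85.8 RPM in the E10.5 libraries, 28.3 and 25.9 RPM in those of E11.5, 4.34 and 2.82 RPM in E13.5 males, and 80.9 and 75.1 RPM in E13.5 females. H19 was 95.7 and 77.2 RPM in the E10.5 libraries, 22.9 and 32.2 RPM in those of E11.5, 10.4 and 11.3 RPM in E13.5 males, and 37.6 and 26.0 RPM in E13.5 females. Both were lowest in the males, as Phlda2 and Slc22a18 were.

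Igf2 fell between E10.5 and E11.5 by 1.61 ± 0.22 (adjusted p = 2.73e-05) and H19 by 1.63 ± 0.23 (adjusted p = 4.73e-05, both by limma, log2 scale). In females against males Igf2 was higher by 4.13 ± 0.22 (adjusted p = 1.17e-14) and H19 by 1.45 ± 0.23 (adjusted p = 1.40e-05). In the floxed libraries neither was called, with Igf2 at 1.47, 30.0, 16.4 and 13.9 RPM in the control and 41.1, 8.35, 10.0 and 88.3 RPM in the CKO-labelled libraries. H19 was 3.24, 7.96, 10.7 and 18.1 RPM in the control and 13.47, 6.16, 4.88 and 103 RPM in the CKO-labelled libraries. Both were highest in CKO-labelled replicate 4, the library with the highest somatic marker sum, and the part of those cells in these values was not tested.

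Among 13 paralogs of the described genes, 9 passed the wild-type filter. In females from E11.5, 4 rose, namely the tetraspanins Cd9, Cd63 and Cd82 and the histone chaperone Nap1l1, and 0 fell, where 51.2% of all genes tested were called. Cd82 reached 5 RPM in the E13.5 female libraries alone, at 7.13 and 7.53 RPM, and passed the filter through them. In males Cd63 rose and Cd151 fell, against 38.2%. Between the sexes, where 37.6% of all genes tested were called, Cd9, Cd63 and Cd82 were higher in females. Cdkn1b, the p27 kinase inhibitor, was lower in females, at 2.50 ± 2.38 against 6.38 ± 1.94 RPM (SD, n = 2, adjusted p = 0.0462 by limma). It reached 5 RPM in both male libraries, at 5.01 and 7.75 RPM, and elsewhere only in an E10.5 library at 7.22 RPM. Without the males it would not have passed the filter, and the lower female value, 0.822 RPM, was at the floor of 3 reads. Cd151 rose and Nap1l1 fell from E10.5 to E11.5, where 4.28% of all genes tested were called. With the CKO label 0 of 8 tested paralogs were called, where 2.43% of all genes tested were, and 0 had an unadjusted p under 0.05.

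Of 20 proteins known to set, keep or act at imprints, 14 passed the floxed filter, and 2 were higher with the CKO label. These were Dnmt3a, a de novo DNA methyltransferase, at 61.3 ± 11.1 against 28.1 ± 2.83 RPM (adjusted p = 0.00079), and Uhrf1, which recruits the maintenance methyltransferase, at 13.2 ± 5.64 against 4.48 ± 1.19 RPM (SD, n = 4, adjusted p = 0.0215, both by limma), where 1.93% of all genes tested were higher. Uhrf1 was 3.24 to 5.77 RPM in the control and at least 8.82 RPM in the CKO-labelled libraries, and reached the filter's 4 libraries through the latter. Among 16 tested in the wild-type table, 0 were called from E10.5 to E11.5, where 4.28% of all genes tested were. At an unadjusted p under 0.05 by limma there were 3, 1 higher and 2 lower, and the share of all genes at that threshold was not counted. From E11.5 to E13.5, 8 rose and 2 fell in males, where 38.2% of all genes tested were called, and 7 rose and 3 fell in females, where 51.2% were. Between the sexes, where 37.6% were called, Dnmt1, the maintenance methyltransferase, was higher in females, at 251 ± 15.5 against 178 ± 4.71 RPM (SD, n = 2, adjusted p = 0.000617 by limma). Tet1, an enzyme that oxidises methylcytosine, was lower, at 68.1 ± 8.77 against 122 ± 7.08 RPM (SD, n = 2, adjusted p = 7.26e-05 by limma). Rnf2 was also higher in females, and Eed and Trim28 were lower.

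The genes whose pattern over the 8 wild-type libraries was most like that of Phlda2, Cdkn1c or Kcnq1ot1 were taken by the mean absolute difference of log2(RPM + 1) after centring each gene. For Phlda2 they were Msx2 (0.40), Dsp (0.68) and Sct (0.69), where the median gene tested was 2.16 away. Msx2, a homeobox factor, measured 68.6 and 70.4 RPM in the E10.5 libraries, 50.5 and 48.1 RPM in those of E11.5, 1.34 and 0.704 RPM in E13.5 males and 89.3 and 84.7 RPM in E13.5 females. For Cdkn1c they were Fig4 (0.14), Cpne1 (0.16) and Camk2g (0.16), against a median of 0.80. For Kcnq1ot1 they were Celf4 (0.10), Adat2 (0.15) and Cdc25c (0.16), against a median of 0.58. All of these values share the same 8 libraries. The genes were picked as the nearest of all tested, so their distances lie under the median by that choice.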

How the data were processed

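3′ RNA sequencing libraries of sorted PGCs were analysed from a table of 8 floxed and a table of 8 wild-type libraries. Per the submitters' processing notes, reads were processed with cutadapt 1.3, TopHat 1.4.1 and Cufflinks 2.2.0 on mm10. The deposited values are in RPM, scaled to the gene-assigned total of each library with no correction for gene length, and the wild-type table also lists 92 ERCC spike-in RNAs. Steps between low RPM values gave the depth, but some genes had fractional values, so RPM and not counts were tested.

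Tests used limma 3.58.1 (lmFit, eBayes with trend) in R 4.3.3 on log2(RPM + 1). Genes needed 5 RPM in 4 floxed or 2 wild-type libraries. P-values were adjusted (Benjamini-Hochberg) over all genes tested, and a gene was called at adjusted p under 0.05. Control and CKO-labelled libraries made 1 comparison, and the wild-type groups were fitted together for 4 that share libraries. The code was tested on simulated data. Alternatives covered the pseudocount (0.1, 10), the filter (none, 20 RPM), scaling, trend, a replicate block and each library left out. ERCC scaling and limma voom on recovered reads were chosen after seeing the data.

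Named genes are the 8 described, listed genes of the region, the pair Igf2 and H19, paralogs, imprint proteins, cell type markers, Prdm1 and the 3 genes most like each of 3 described genes. The 8 genes and the lists were chosen with earlier results of these data known. Of the listed cell type markers, 1 is not reported here.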

Additional observations from a re-analysis of the deposited data

Results flagged for a closer look

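At E13.5 the difference from E11.5 was not the same in females and males for 3 of the 8 genes, tested directly as females against males. In that comparison 37.6% of all genes tested were called, so the count is near the share over the whole table. It was 6.44 on the log2 scale for Phlda2 (adjusted p = 3.80e-25) and 5.16 for Slc22a18 (adjusted p = 9.27e-12), which fell in males and rose in females. It was 0.65 for Cdkn1c (adjusted p = 0.0305, all by limma), which rose in both. The call for Cdkn1c held in 11 of 17 alternatives, over which its difference ran from 0.48 to 1.05.

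In the 4 control libraries, 1 library stood apart from the others for 2 genes. Cdkn1c was highest at 43.4 RPM in replicate 2, where the gap to the next library was 0.882 of the whole range. Kcnq1ot1 was highest at 8.32 RPM in replicate 3, with a gap of 0.910 of the range. Chance flags about 1 in 20 groups of this size.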

How the results depend on the processing

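Calls for the rises and falls from E11.5 to E13.5 of Phlda2, Slc22a18, Cdkn1c, Ascl2 and Cd81, and for Phlda2 and Slc22a18 between the sexes, held under all 17 alternatives. The number of the 8 genes called with the CKO label was 0 under each, and 5 in males from E11.5. From E10.5 to E11.5 the number, 2 in the reported fit, was 1 with voom, without the filter or with a pseudocount of 10, 0 without trend (Phlda2 adjusted p = 0.0530), and 1 to 3 with a library left out. In females from E11.5 it was 5, 8 with voom and 5 to 6 with a library left out. Between the sexes it was 3, and 2 to 4 with a library left out. Cdkn1c between the sexes was called in 11 of 17 alternatives, with adjusted p from 0.00159 to 0.286, and was lost without the filter (0.0683) and without trend (0.0606).

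Over all genes, 228 were called with the CKO label, 139 with a filter at 20 RPM and 134 to 206 with a library left out (147 without CKO-labelled replicate 1, 134 without 2), and 220 without control replicate 1 and CKO-labelled replicate 4 together. From E10.5 to E11.5, 460 were called, 80 without the filter, 27 without trend and 100 to 487 with a library left out (100 without E10.5 replicate 1, 163 without 2). In males from E11.5, 4105 were called, 2354 with ERCC scaling and 2884 to 3976 with a library left out. The counts were 5502 and 3812 to 5463 in females from E11.5, and 4038 and 2552 to 4429 between the sexes (2558 without female 1, 2552 without female 2).

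ERCC scaling moved the median of all genes by -0.41 from E10.5 to E11.5, 0.49 in females from E11.5 and 0.40 between the sexes, and median-ratio scaling moved it by -0.11 in females from E11.5. Genes called higher and lower were 248 and 212 from E10.5 to E11.5, but 28 and 507 with ERCC, 212 and 280 with median-ratio scaling, 11 and 16 without trend, 70 and 30 without E10.5 replicate 1, 118 and 45 without E10.5 replicate 2 and 204 and 283 without E11.5 replicate 1. They were 4729 and 574 in females from E11.5 and 3257 and 473 between the sexes with ERCC, against 3354 and 2148, and 2280 and 1758. With the CKO label they were 181 and 47, and 141 and 16 without control replicate 3.

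No difference that changed sign was called in the reported fit, and the cause was not tested. From E10.5 to E11.5, Ascl2 was -0.75 with voom and -0.080 with a pseudocount of 0.1, Slc22a18 0.019 with voom, and with ERCC scaling Nap1l4 was -0.18 and Tssc4 -0.15. With ERCC scaling Cd81 was 0.28 and Kcnq1ot1 0.086 between the sexes, and Tssc4 0.0075 in males from E11.5. Without control replicate 1 and CKO-labelled replicate 4, Cd81 was -0.29 and Cdkn1c -0.10. With a library left out, differences with the CKO label ran from -0.15 to 0.46 for Cd81, -0.029 to 1.06 for Cdkn1c, -0.049 to 0.037 for Nap1l4 and -0.21 to 0.057 for Phlda2. They ran between E10.5 and E11.5 from -1.03 to 1.56 for Ascl2, -0.24 to 0.070 for Cd81, -0.43 to 0.13 for Kcnq1ot1 and -0.22 to 0.17 for Slc22a18. Between the sexes they ran from -0.27 to 0.013 for Cd81, -0.77 to 0.22 for Kcnq1ot1 and -0.021 to 0.23 for Nap1l4, and in males from E11.5 from -0.21 to 0.046 for Tssc4.

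Same-numbered libraries correlated by 0.24, 0.02, 0.25 and 0.18 in the floxed table and by -0.03 to 0.03 in the wild-type table. The labels name nothing shared and not every pair was above 0.1, so the numbers were not taken as pairs. With a replicate block the counts were 314 with the CKO label, 559 from E10.5 to E11.5, 4160 in males and 5563 in females from E11.5, and 4099 between the sexes. Of the 8 genes, Nap1l4 in females from E11.5 was then called (adjusted p = 0.0439), and no other call changed. Where a library left out leaves a group with 1 sample, that sample is assumed to vary like the other groups. The planned edgeR fit on recovered reads was not run, since some values are fractions of a read, and voom was used instead. Slc22a18 in E13.5 males and Ascl2 in most CKO-labelled libraries lie under the floor of 3 reads, where smaller levels are not detectable.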

Other observations

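Wild-type and control libraries at E11.5 come from tables normalised separately, with other strains and reporters, so they were not tested against each other. Side by side, Phlda2 was 163 ± 18.5 RPM (SD, n = 2) and 150 ± 12.2 RPM (SD, n = 4), and Nap1l4 138 ± 21.3 and 146 ± 7.85 RPM, wild type first. Slc22a18 was 8.79 ± 0.05 and 4.24 ± 1.28 RPM, Kcnq1ot1 10.9 ± 0.23 and 5.02 ± 2.205 RPM, and Cdkn1c 10.9 ± 3.07 and 27.2 ± 10.8 RPM.

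Th, the enzyme that makes the dopamine precursor and lies beside Ins2, did not pass the filter. Its mean was 8.27 ± 6.72 RPM in E13.5 males, 1.21 ± 0.23 RPM in E13.5 females and 0.285 ± 0.40 RPM at E11.5 (SD, n = 2). Tnfrsf22, a decoy receptor gene of the flank, was 0.669 ± 0.45 RPM in the control and 3.11 ± 1.39 RPM in the CKO-labelled libraries (SD, n = 4). It was under the filter too, and its control libraries held 1, 3, 6 and 2 reads. Of the 14 further genes, 3 had no overlap by CKO label, Dhcr7, Tnfrsf22 and Ins2. Over all genes tested 8.19% had none, a share that leaves out genes under the filter such as Tnfrsf22 and Ins2. Ins2, under the floxed filter, was 1.18 to 3.72 RPM in the control and 0.357 to 0.994 RPM in the CKO-labelled libraries.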
